A study of Mus musculus with 8 samples.

Results

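The 800 widest open regions with a peak in all 4 ATAC-seq libraries of control and Tcf7/Lef1 knockout DN1 cells were described. Peaks of the 4 deposited lists that overlapped by at least 1 base were merged into 134830 regions outside the mitochondrial chromosome. A peak of every library was present in 79684 of them, and the 800 members were selected on merged width among these. Merged width, the distance from the first to the last base under any peak of any library, therefore chose the members and is given only as a description. Members measured 1037 to 1851 bases with a median of 1138, against a median of 365 over all shared regions. The last 6 members measured 1037 bases, among them the region at the start of Oser1, and the first region outside measured 1036.

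Bone marrow LSK cells (a fraction enriched for blood stem and progenitor cells) came from mice carrying CreER, a Cre recombinase that tamoxifen switches on. The control mice were CreER+ WT, and the knockout mice were CreER+ Tcf7-floxed, Lef1-floxed. Both were grown on OP9-DL1, a stromal cell line that presents a Notch ligand and drives progenitors towards T cells, and both received 4-OH tamoxifen from day 3 to day 5. On day 7 the DN1 fraction (Lin-CD8-CD4-CD44hiCD25- ckit+), the earliest stage of T-cell development, was sorted for RNA-seq and for ATAC-seq, which maps open chromatin through the insertions of a transposase. The controls thus also carried CreER and also received tamoxifen. Each genotype had 2 RNA and 2 ATAC libraries, and no label says whether replicates were separate animals or cultures, so the spread between them may be technical.

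A promoter is the stretch of DNA next to a gene start where RNA polymerase II and its initiation factors assemble, and its nucleosomes are often displaced, which leaves it open. Promoters of broadly used genes commonly lie in CpG islands, stretches rich in the CG dinucleotide that are usually unmethylated. Enhancers, which act on genes from a distance, are mostly narrower and more specific to a cell type. TCF1 (the product of Tcf7) and LEF1 are sequence-specific DNA-binding factors of the T lineage.

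The sequence of these promoters is shown first for genes of 2 of the 15 widest regions, with every CG dinucleotide in capitals because its density set the members apart from most mouse promoters. Each run is the 250 bases before the RefSeq start (GRCm38.p6, the mm10 coordinates), 5′ to 3′ on the gene's strand. Nfe2l2 encodes NRF2, the master activator of antioxidant genes, and its run is chr2:75704664-75704913 on the minus strand. Hmgn2 encodes a nucleosome-binding protein, and its run is chr4:133967992-133968241 on the minus strand.
Nfe2l2: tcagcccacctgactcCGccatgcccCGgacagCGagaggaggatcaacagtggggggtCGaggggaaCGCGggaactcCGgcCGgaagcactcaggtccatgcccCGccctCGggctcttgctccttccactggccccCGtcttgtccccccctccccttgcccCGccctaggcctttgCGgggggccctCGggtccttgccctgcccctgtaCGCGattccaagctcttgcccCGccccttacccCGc
Hmgn2: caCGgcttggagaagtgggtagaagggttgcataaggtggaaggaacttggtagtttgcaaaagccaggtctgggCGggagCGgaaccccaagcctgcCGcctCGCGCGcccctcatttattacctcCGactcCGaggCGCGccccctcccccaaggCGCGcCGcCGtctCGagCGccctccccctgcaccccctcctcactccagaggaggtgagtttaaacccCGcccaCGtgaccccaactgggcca
The Nfe2l2 run held 18 CG dinucleotides at 70.4% G and C, and the Hmgn2 run held 19 at 65.2%. The letters GGGCGG, the core of an SP1-type GC box, occurred 3 times in the first and 2 times in the second, counting both strands. TATAAA, the core of the TATA box, occurred in neither.

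A further 5 promoters, chosen after their values were seen, belong to genes described below for a difference in width or RNA. Tnfaip3 is chr10:19015411-19015660 (minus strand), Dusp1 is chr17:26508473-26508722 (minus strand), Lpcat1 is chr13:73466981-73467230 (plus strand), Gulp1 is chr1:44551421-44551670 (plus strand) and Kcmf1 is chr6:72899980-72900229 (minus strand).
Tnfaip3: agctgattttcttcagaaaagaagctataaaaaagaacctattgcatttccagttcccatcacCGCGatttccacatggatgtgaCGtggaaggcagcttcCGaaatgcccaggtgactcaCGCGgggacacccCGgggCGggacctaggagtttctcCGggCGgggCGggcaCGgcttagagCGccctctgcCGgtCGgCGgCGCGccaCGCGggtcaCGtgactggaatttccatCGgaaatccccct
Dusp1: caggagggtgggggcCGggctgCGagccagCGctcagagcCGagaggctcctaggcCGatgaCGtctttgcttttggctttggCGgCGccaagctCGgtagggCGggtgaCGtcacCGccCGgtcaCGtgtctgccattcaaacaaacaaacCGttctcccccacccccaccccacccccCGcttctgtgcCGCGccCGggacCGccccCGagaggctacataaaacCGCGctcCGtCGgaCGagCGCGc
Lpcat1: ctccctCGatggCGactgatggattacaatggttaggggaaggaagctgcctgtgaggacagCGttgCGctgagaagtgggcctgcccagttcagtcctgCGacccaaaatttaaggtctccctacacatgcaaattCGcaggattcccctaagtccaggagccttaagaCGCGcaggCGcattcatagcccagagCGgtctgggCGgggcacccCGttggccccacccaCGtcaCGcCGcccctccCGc
Gulp1: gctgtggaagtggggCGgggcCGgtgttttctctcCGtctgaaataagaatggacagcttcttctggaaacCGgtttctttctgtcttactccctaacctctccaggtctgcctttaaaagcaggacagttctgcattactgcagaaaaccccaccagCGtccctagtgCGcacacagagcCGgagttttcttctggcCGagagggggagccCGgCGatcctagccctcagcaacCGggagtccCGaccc
Kcmf1: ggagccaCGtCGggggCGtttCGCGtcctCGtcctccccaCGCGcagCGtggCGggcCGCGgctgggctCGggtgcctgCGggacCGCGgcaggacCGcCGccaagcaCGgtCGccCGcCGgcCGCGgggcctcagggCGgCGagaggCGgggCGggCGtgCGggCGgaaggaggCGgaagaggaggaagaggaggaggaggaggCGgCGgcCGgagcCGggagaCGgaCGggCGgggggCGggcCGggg
CG dinucleotides numbered 12 in the Gulp1 run, 16 in Lpcat1, 22 in Tnfaip3, 28 in Dusp1 and 41 in Kcmf1. Kcmf1 was also the richest of these in G and C, at 81.2%, and Gulp1 the poorest, at 56.8%. TATAAA occurred only in the Tnfaip3 run among the 7 printed here.

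RefSeq promoter windows of 300 bases (250 before and 50 after the start) described the members as a group. Of the 780 genes that started in a member, 593 had a RefSeq window of the same symbol that also started in one. In all, 862 windows of 716 genes started in the 800 regions. Their median was 66.3% G and C with 27 CG dinucleotides, against 52.7% and 7 over all 32851 windows. Only 5 of the 862 (0.58%) held under 5 CG dinucleotides, against 38% of all windows. The next 800 regions by width gave nearly the same medians, 66% and 26, so high CG density was shared with other broad regions.

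Short letter motifs were counted in these windows on both strands. GGGCGG was in 76.9% of members' windows and 35.7% of all windows. CCGGAAG, an ETS-type core, was in 15.3% against 8.86%, and AAGATGGC, a YY1-type core, in 5.34% against 2.75%. TATAAA was in 4.76% against 13.6%, and CCAAT, the NF-Y box, in 29.8% against 37.4%. The core AGATAA of blood-forming GATA factors was in 3.6% against 11.2%. The RUNX core TGTGGT was in 8.24% against 16.8%, and the AP-1 site TGANTCA in 2.9% against 7.81%. CTTTGAT, a TCF/LEF-type core, was in 0.696% of members' windows, 2.48% of those of the next 800 regions and 3.73% of all windows. For the next 800 the shares were 77.6% for GGGCGG, 20.4% for CCGGAAG, 3.99% for AAGATGGC, 4.26% for TATAAA and 32.9% for CCAAT. They were 3.44% for AGATAA, 11.1% for TGTGGT and 3.71% for TGANTCA. Windows of the remaining shared regions held GGGCGG in 64.6%, CCGGAAG in 18.3%, AAGATGGC in 4.36%, TATAAA in 6.37% and CCAAT in 38.4%. The shares there were 5.78% for AGATAA, 13.7% for TGTGGT, 4.95% for TGANTCA and 2.43% for CTTTGAT. Members were thus above all windows for CCGGAAG but below the next 800 and the remaining shared regions. Of all 32851 windows, 19715 started in no shared region. The members' windows were also richer in G and C than all windows, and the part of base composition in these shares was not tested. They describe letters and not binding.

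**Figure D1:**
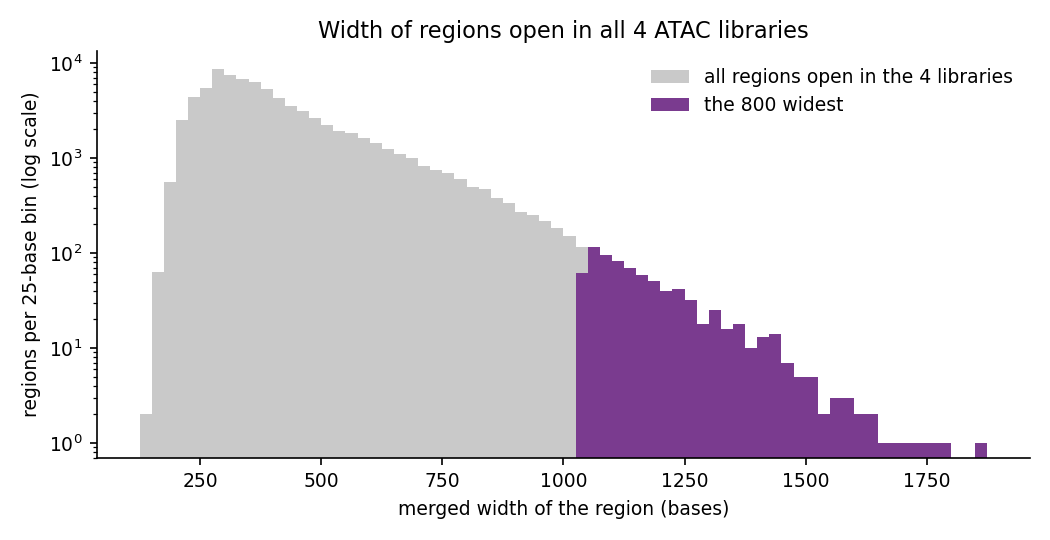
Merged width in bases (25-base bins) against the number of regions per bin on a log scale, for all 79684 regions with a peak in the 4 libraries (grey) and the 800 widest (purple). The members are the tail from 1037 to 1851 bases, and the bulk of regions lies near the median of 365.

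The widest regions were largely gene starts. Of the 800, 628 (78.5%) held at least 1 gene start of the expression tables, against 74.6% of the next 800 and 14% of all shared regions. A single start was in 482, a pair in 141 and 3 or more in 5. Divergent pairs, in which neighbouring genes start back to back on opposite strands, were in 105 members (13.1%), against 8.5% of the next 800 and 1.14% of all shared regions. Wide regions have more room for any start, so this share moves with width. Starts lay within 1 kb of 674 members (84.2%), and 9.75% were over 10 kb from any, against 60% of all shared regions. Of the 172 members without a start in the tables, 52 held a start of RefSeq, and 92 lay within the span of a gene. Whether those within genes were exonic or intronic was not analysed here.

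Openness reached further into the gene than away from it. Over the 482 members with a single start, the merged region reached a median of 478.5 bases before the start and 668.5 bases after it. Only 179 of them (37.1%) reached further before than after, against 47.7% of shared regions with a single start. Among the next 800 regions by width, 508 held a single start, and 41.3% of those reached further before than after. Their median reach was 439.5 bases before the start and 539 after it, so the lean was shared with other broad regions. At 500 bases after the start, 61.2% and 62.4% of these members were under a peak in control and 64.3% and 67.4% in knockout. At 500 bases before it the shares were 41.5% and 42.3% in control and 43.2% and 42.9% in knockout. The asymmetry was thus present in all 4 libraries.

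**Figure D2:**
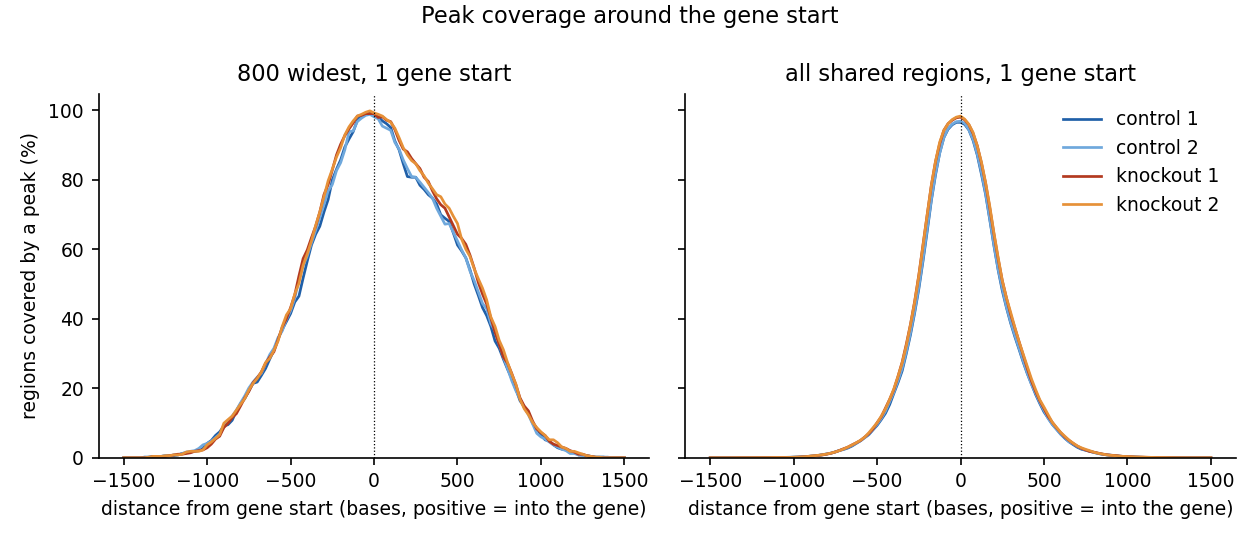
Distance from the gene start in bases (positive into the gene) against the percent of regions under a peak, for the 482 wide members with a single start (left) and all shared regions with a single start (right), 1 line per library. The members' profile is broader and leans into the gene, at 61.2% to 67.4% at 500 bases after the start and 41.5% to 43.2% at 500 bases before it, and the 4 libraries run close together.

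The widest region of all, chr17:39843089-39844939, lay 92 bases from the start of Rn45s, the 45S ribosomal RNA precursor. Rn45s stood at 25734 and 25503 TPM (transcripts per 1000000) in control and 25052 and 25283 in knockout. Its covered width, the bases under at least 1 peak of a library, was 1795 and 1800 in control and 1825 and 1848 in knockout. The authors' peak caller gave it a fold of only 2.26 to 2.56 over local background, where the median member had 10.6 to 10.8. Ribosomal DNA exists in many copies of which a genome build holds few, so reads there may come from other copies and its width is uncertain. The second widest, at 4930526I15Rik, an unnamed transcript, had a fold of 4.29 to 4.81.

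Divergent pairs filled 3 of the 15 widest regions. These were E130307A14Rik with Rev3l, the catalytic subunit of translesion polymerase zeta, Fiz1 with the zinc-finger gene Zfp524, and 4930539J05Rik with Ube2d3, a ubiquitin-conjugating enzyme. Pigp, which acts in GPI-anchor synthesis, shared the third widest region with Ttc3, which starts on the opposite strand. Single starts of the expression tables belonged to Qrich1, Hmgn2, Nfe2l2, Rmi1 (a partner of the BLM helicase), Tbl1xr1 (a subunit of NCoR corepressor complexes), Stim1 (the endoplasmic reticulum calcium sensor) and Fam49b. The Rmi1 region also held a RefSeq start of Hnrnpk. The tenth widest held the RefSeq start of Srpk2, a kinase of splicing factors, and the eleventh lay 59502 bases from its nearest start, that of Arid1a. None of these 15 differed between genotypes by more than 0.12 on the log2 scale of covered width. The largest difference among them was at Pigp and Ttc3, where 1520 and 1671 bases were covered in control and 1719 and 1748 in knockout.

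Across the 800 regions, covered width differed little between genotypes. The members' total was 849.8 and 854.4 kb for the controls and 878.9 and 884.3 kb for the knockouts, 3.46% more. Both knockout libraries were above both controls, and a two-sided exact permutation test gave p = 0.333, the smallest that 2 against 2 libraries allow. All shared regions together differed by 3.27% and the next 800 by 3.29%, so the members' difference was close to that of the lists as a whole. The median member's log2 ratio of knockout to control was 0.0295, and the median size of the ratio, 0.0585, stood beside a median difference of 0.0585 between the control replicates and 0.0445 between the knockout replicates. Widths of 547 members (68.4%) differed by under 0.1 on the log2 scale, against 41.4% of all shared regions, and those of 14 (1.75%) by over 0.5, against 7.76%. The next 800 regions were close to the members, at 64.9% and 3%. The same shift in bases gives a smaller log2 ratio in a wider region, so these shares move with the width that chose the members. Between the control replicates the median difference was likewise larger over all shared regions, at 0.118.

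Both knockout libraries were wider than both controls at 306 members (38.2%), where the same held at 30.5% of all shared regions. They were narrower at 99 members (12.4%), against 17.7% of all shared regions. This balance depended on scaling. The knockout lists held more peaks (109380 and 111007 against 103009 and 105227) and a wider median region (317 and 318 bases against 305 and 308). With each library divided by that median, 17.8% of members were wider and 34.8% narrower, against 21.8% and 27% of all shared regions, and the median log2 ratio became -0.0214. Read depth of the ATAC libraries is unknown here, and its part in these differences was not tested. No direction over the members as a group is therefore given, and the 8 most widened and 8 most narrowed regions named below kept their call under both scalings. Since merged width takes in the bases of any library, a region broad in either genotype alone could be a member. The size of the largest ratios below is therefore partly set by the selection.

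Control libraries had more members broken into separate peaks. More than 1 peak was called in 337 and 351 members (42.1% and 43.9%) in control and in 234 and 222 (29.2% and 27.8%) in knockout. The groups did not overlap, and 80 members (10%) had more peaks in both controls than in either knockout library, against 14 (1.75%) the other way. These shares were 6.5% and 1.25% of the next 800 regions and 0.565% and 0.218% of all shared regions. More than 1 peak was also commoner in control over all shared regions, at 2.97% and 3.08% in control and 2.24% and 2.28% in knockout. The median −log10 q of members was 118 and 120 in control and 139 and 143 in knockout, moving with the peak number. Its part in the splitting was not tested. A single peak in every library was called at 290 members.

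**Figure D3:**
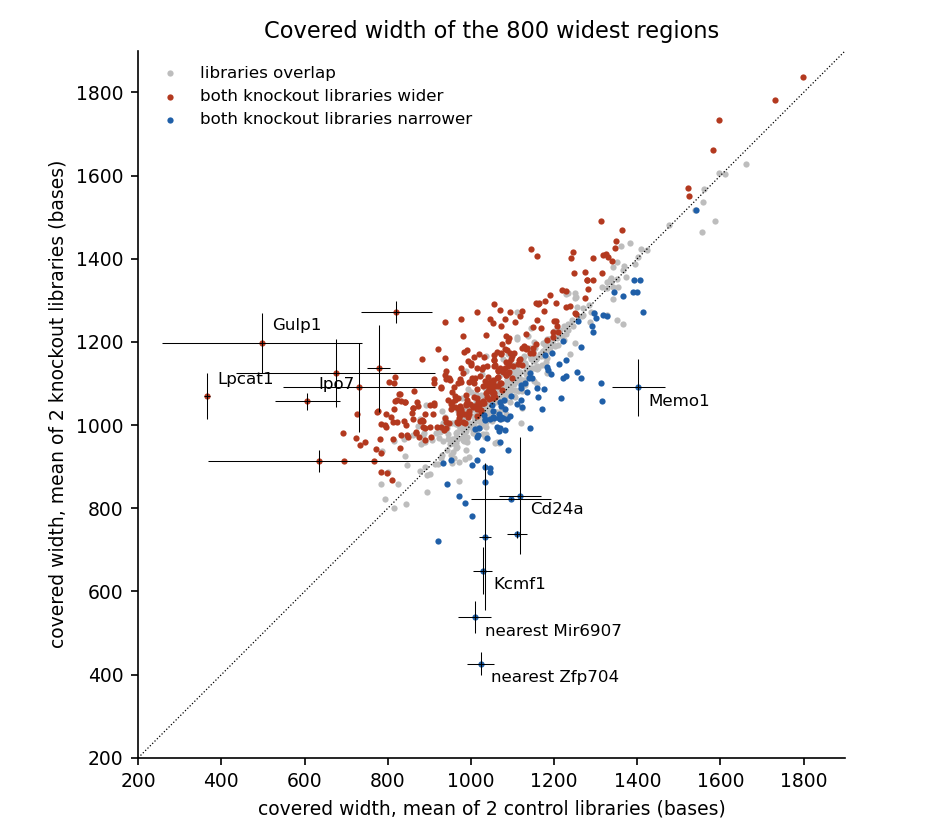
Mean covered width in bases of the 2 control libraries (horizontal) against that of the 2 knockout libraries (vertical) for the 800 regions, with the SD of the 16 regions of largest difference as bars. Most points lie near the dotted line of equal width, with Lpcat1 and Gulp1 far above it and Kcmf1 and the region nearest Zfp704 far below.

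The largest widening was at Lpcat1, which encodes an acyltransferase that remodels phosphatidylcholine. Its region, chr13:73467011-73468119, was covered over 361 and 370 bases in control and 1030 and 1109 in knockout, a 2.93-fold difference (log2 1.55). It passed the 1037-base cut only through the knockout libraries, so this difference was partly selected. In both controls the peak ended 18 bases after the tables' start (73467383, downstream of the RefSeq start used for the printed run). In knockout, peaks reached 697 and 736 bases after it, so the added openness lay inside the gene. Lpcat1 RNA stood at 9.54 and 15.7 TPM in control and 25 and 26.4 TPM in knockout, and rose by 1.01 on the log2(TPM + 1) scale (SE 0.22, limma adjusted p = 0.0185). Without knockout replicate 1 or 2 its adjusted p was 0.0744 or 0.0836.

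Gulp1 showed the same shape. It encodes an adaptor protein for the engulfment of apoptotic cells. Covered width at chr1:44551449-44552708 was 327 and 668 bases in control and 1147 and 1248 in knockout (log2 1.27). This region, too, passed the width cut only through the knockout libraries. The control peaks ended 124 and 503 bases after the start, and the knockout peaks 996 and 1037 bases after it. Gulp1 RNA rose from 2.44 and 3.87 TPM to 12.5 and 11.2 TPM, by 1.65 (SE 0.21, limma adjusted p = 0.00347), with the genotypes not overlapping.

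The other widened regions with a gene start were smaller changes, and their RNA did not all move the same way. At Ipo7, a nuclear import receptor, width went from 662 and 552 bases to 1072 and 1043 (log2 0.80). The control libraries had separate peaks on each side of a gap after the start, which was closed in knockout. Again the width cut was passed only through the knockout libraries. Ipo7 RNA was 196 and 190 TPM in control and 218 and 217 in knockout (log2 change 0.17, limma adjusted p = 0.0229), a call that turned to -0.01 with adjusted p = 0.908 under quantile normalization and was lost without any single library, at adjusted p of 0.059 to 0.0995. Micall1, an endocytic recycling adaptor, widened by 0.58 with RNA not called. Cul1, the scaffold of SCF ubiquitin ligases, widened by 0.52, and its RNA rose from 65.9 and 64.1 to 86.3 and 81.7 TPM. Tns3, a focal adhesion protein, widened from 798 and 758 bases to 1062 and 1211 (log2 0.55), while its RNA fell from 151 and 151 TPM to 86.9 and 83.2 TPM (log2 change -0.82, SE 0.048, limma adjusted p = 0.000464). The remaining 2 of the 8 largest widenings held no start. They were chr15:85670055-85671243, nearest Lncppara, and chr17:46857224-46858575, nearest Gltscr1l, and both genes' RNA was not called. Micall1, Cul1, Tns3 and these 2 regions also passed the width cut only through the knockout libraries, so their differences were partly selected.

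The largest narrowing was away from promoters. The region chr3:9632897-9633966, which lay 22812 bases from the start of Zfp704, was covered over 1001 and 1047 bases in control and 407 and 446 in knockout (log2 -1.26). This region passed the width cut only through the control libraries. In each knockout library its middle was under no peak, and 2 peaks of 155 to 291 bases lay near its ends. The authors' fold at its strongest peak was 10 and 9.82 in control and 7.81 and 6.7 in knockout, lower in knockout, unlike that of the Rrp1, Armc9 and Kcmf1 regions described next. Those had 13.1 and 13.9, 9.14 and 9.69, and 7.57 and 7.15 in control, and 14.7 and 15.1, 11.8 and 11.3, and 8.96 and 8.78 in knockout. Zfp704 RNA, at 31.6 and 30.9 TPM in control and 28.3 and 27.6 in knockout, was not called. Within the span of Rrp1, a ribosome biogenesis gene, chr10:78406029-78407065 went from 981 and 1037 bases to 511 and 565 (log2 -0.91). Within Armc9, chr1:86263070-86264251 went from 1128 and 1093 bases to 744 and 732, and within Arid5b, chr10:68276329-68277381 went from 1024 and 1045 to 607 and 857. The Rrp1, Armc9 and Arid5b regions also passed the width cut only through the control libraries, so their differences were partly selected.

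The promoters named among the narrowed regions had a core peak at the start in every library and less flanking coverage in knockout. At Kcmf1, an E3 ubiquitin ligase, 1012 and 1045 bases were covered in control and 610 and 690 in knockout (log2 -0.66). Control peaks began at position -637 and -633 from the start and knockout peaks at -224 and -273. At Creb1, the cyclic AMP response factor, width went from 1165 and 1028 to 820 and 824 bases, and peaks that began at -798 and -787 in control began at -445 and -435 in knockout. At Memo1 it went from 1357 and 1447 to 1042 and 1139 bases. The Kcmf1 and Creb1 regions passed the width cut only through the control libraries, while the knockout peaks at Memo1 reached it alone. Kcmf1, Creb1 and Memo1 RNA was not called (limma adjusted p = 0.804, 0.0835 and 0.0511). Creb1 passed, lower by 0.25 and 0.26, under the quantile and median-ratio scalings, and Memo1 passed, higher by 0.26, among genes of at least 5 TPM.

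Cd24a, which encodes the surface glycoprotein CD24 of immature blood cells, narrowed and also had less RNA. Its region, chr10:43578401-43579710, was covered over 1082 and 1154 bases in control and 731 and 930 in knockout (log2 -0.43). Cd24a RNA fell from 338 and 339 TPM to 206 and 194 TPM (log2 change -0.76, SE 0.043, limma adjusted p = 0.000429). Both controls and knockout replicate 2 had a separate upstream peak, which knockout replicate 1 lacked. Peaks of neither genotype alone formed a region that reached the width cut.

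**Figure D4:**
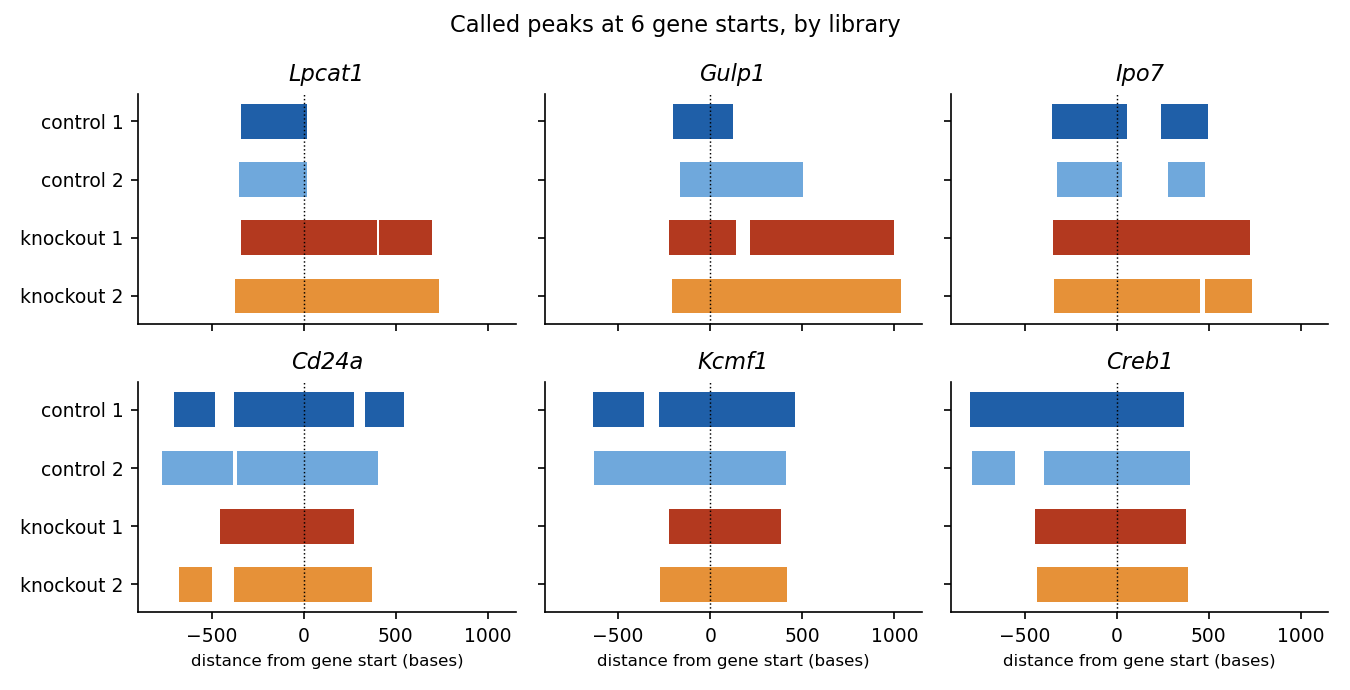
Called peaks (bars) by library at 6 gene starts, against distance from the start in bases (dotted line at the start). At Lpcat1, Gulp1 and Ipo7 the knockout peaks extend further into the gene, and at Kcmf1 and Creb1 the control peaks extend further upstream, while Cd24a is mixed.

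The genes that start in the 800 regions were mostly expressed in both genotypes. They numbered 780 of 24538 in the tables (3.18%), and 745 passed the filter of a mean of at least 1 TPM. Their median was 26.6 TPM in control and 26.6 TPM in knockout, against 27.6 for genes of the next 800 regions, 17.5 for genes of any shared region and 1.71 for all genes. Over 100 TPM in control were 115 of the 780 (14.7%), against 5.22% of all genes, and under 1 TPM were 31. A low gene can lie in a wide region through a neighbour, since a region may hold several starts. In bulk RNA, fewer cells of a type and less RNA per cell cannot be told apart.

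Ppia (cyclophilin A), the highest of them on the mean of the 4 libraries, rose from 2864 and 2926 to 4466 and 4262 TPM. Hist1h1c, a linker histone, was at 2855 and 3181 TPM in control and 2962 and 2957 in knockout and was not called, and Tpt1 (translationally controlled tumour protein) fell from 3058 and 3032 to 2561 and 2514. Rpl10, of the large ribosomal subunit, fell from 2278 and 2275 to 1936 and 2010 TPM, a change of -0.21 that missed the threshold without either control library (limma adjusted p = 0.051 and 0.0501). Ppia, Tpt1 and Rpl10 have near-identical processed copies in the genome, so their TPM is uncertain. The chaperones Hsp90aa1 and Hsp90b1 rose by 0.65 and 0.70, from 925 and 937 to 1474 and 1445 TPM and from 669 and 665 to 1077 and 1095 TPM. The Hsp90aa1 region was also wider in both knockout libraries (log2 0.50). Nucleolin (Ncl) rose from 694 and 695 to 1012 and 1034 TPM and Hnrnpa2b1 from 903 and 905 to 1202 and 1185. Vimentin (Vim), at 1256 and 1294 TPM in control and 1342 and 1245 in knockout, was not called. Gm6793, a predicted gene that starts beside Hnrnpa3, ranged from 709 to 1152 TPM with the genotypes overlapping.

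RNA of these genes changed about as often as RNA in general. Of the 745 tested, 116 (15.6%) were lower in knockout and 192 (25.8%) higher by limma at an adjusted p under 0.05, where 14.7% and 25.2% of all 13228 tested genes were. By at least 1 on the log2 scale, 14 (1.88%) were lower and 13 (1.74%) higher. The shares were 2.58% and 1.67% for genes of the next 800 regions, 2.67% and 2.71% for genes of any shared region and 3.85% and 3.58% for all tested genes. The median change was 0.035, against 0.093 over all tested genes. The share of calls that were lower was 37.7% on the deposited TPM, but quantile normalization gave 53.6% and median-ratio scaling 52.8% (36.8%, 46.8% and 48.2% over all genes). Leaving out any 1 library gave fewer calls in both directions, among these genes and over all genes. With 1 library left in a group, such counts cannot tell the influence of a library from lost power. The median change of these genes was then 0.038 to 0.059.

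The RNA calls were then read by the width of the region. Genes of regions wider in knockout were called higher in 85 of 279 cases (30.5%) and lower in 43 (15.4%). Genes of narrower regions were called higher in 20 of 85 (23.5%) and lower in 12 (14.1%), and those of regions with overlapping libraries higher in 87 of 381 (22.8%) and lower in 61 (16%). The median changes were 0.093, -0.019 and 0.023. These differences are small, and no test of them was made.

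The deepest falls among these genes were at Tnfaip3 and Bhlhe40, in regions that were not narrower in knockout. Covered width is a length under peaks and not a signal strength, so its ratio and an RNA change are not on a like scale. Tnfaip3, which encodes the NF-kappaB inhibitor A20, fell from 50.4 and 55.4 TPM to 11.5 and 8.39 TPM, 5.34-fold (log2 change -2.32, SE 0.15, limma adjusted p = 0.000614), with a width ratio of 0.05 on the log2 scale. Dusp1, a phosphatase that switches off MAP kinases, fell from 157 and 166 to 48.8 and 48.6 TPM, 3.32-fold, with a width ratio of 0.03. Nfkbia, the inhibitor IkappaB-alpha, fell from 85.6 and 89.9 to 40.9 and 35.2 TPM, and Relb, an NF-kappaB subunit, from 10.3 and 10.9 to 4.03 and 4.35 TPM. Dusp10, another MAP kinase phosphatase, fell from 15.6 and 15.3 to 5.99 and 4.07 TPM. The basic helix-loop-helix repressor Bhlhe40 fell from 38.3 and 37.7 to 8.73 and 7.68 TPM, and Itga4, the integrin alpha-4 chain used in homing, from 270 and 274 to 114 and 110 TPM. Genotypes not overlapping in RNA was part of the rule that chose these 7, so it adds nothing here. Their log2 width ratio was largest at Bhlhe40, at 0.18. That region was wider in both knockout libraries while the RNA fell.

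Among the 10 largest falls, 3 were less certain. The chemokine gene Cxcl2 had 3.41 and 1.81 TPM in control, while each knockout library listed it at 0, so no fold is given. The microRNA genes Mir3960 and Mir2861 start within the Cdk9 region, at 17.3 and 7.47 TPM and 17.2 and 4.9 TPM in control and 1.73 to 3.48 TPM in knockout. The calls of these microRNA genes were lost without control replicate 1 (limma adjusted p = 0.0907 and 0.0709) and without other libraries, and reads of host and neighbouring transcripts cannot be told apart here. Cdk9 itself, at 44.2 and 42.9 TPM in control and 42.3 and 41.4 in knockout, was not called.

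The largest rises were at genes of low TPM. Itsn1, an endocytic scaffold, rose from 5.88 and 5.34 to 20.7 and 19 TPM, 3.54-fold (log2 change 1.66, SE 0.12, limma adjusted p = 0.000801). Acvr1, a BMP type I receptor, rose from 4.59 and 2.44 to 12.4 and 10.2 TPM, 3.22-fold (log2 change 1.49). Without knockout replicate 1 its change was 1.36 with a limma adjusted p of 0.0606. Enc1 rose from 4.54 and 6.63 to 16.3 and 13.6 TPM, and Zmat3, a p53 target, from 1.93 and 1.73 to 6.19 and 5.56. Fbn1, the microfibril protein fibrillin-1, rose from 11.9 and 12.9 to 34.3 and 26.6 TPM, and Top1mt, the mitochondrial topoisomerase, from 8.67 and 10.1 to 21.3 and 21.1. Spsb4, 4930526I15Rik and 9230114K14Rik also rose, and each lost its call without at least 1 library, including knockout replicate 2 (adjusted p = 0.132, 0.0558 and 0.117). Beside these rises, 9 of 13 tested stromal markers rose and 0 fell, where 25.2% of all tested genes were higher and 14.7% lower. The list's summed TPM went from 1088 and 1109 to 2430 and 2012, with none of its 14 genes listed at 0 in every library. The part of stromal RNA in the rises of Fbn1, Gulp1, Acvr1 and Lpcat1 was not tested.

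**Figure D5:**
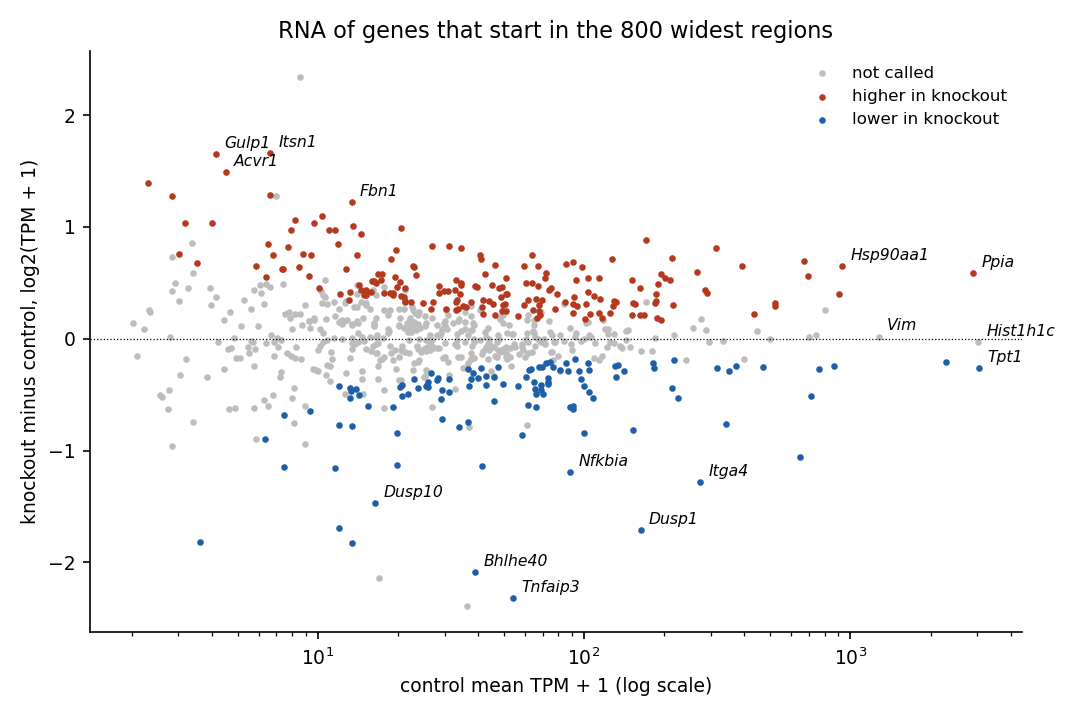
Control mean TPM + 1 (log axis) against the knockout minus control difference in log2(TPM + 1) for the 745 tested genes that start in the 800 regions, coloured by limma call. Most genes lie within 1 of no difference, with Tnfaip3 and Bhlhe40 lowest among called genes and Itsn1 and Gulp1 highest.

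Gene lists placed these starts among cell functions. Of 19 RNA polymerase II and splicing genes, 7 (36.8%) started in a wide region, where 3.18% of all genes and 5.63% of tested genes did. They were Polr2a, Cdk9, Srsf2, Srrm2, Ddx5, Hnrnpa1 and Hnrnpa2b1. Srsf2 rose from 205 and 198 to 288 and 299 TPM, Ddx5 fell from 868 and 865 to 726 and 746, and Srrm2 fell from 469 and 470 to 396 and 394. Polr2a, the largest subunit of RNA polymerase II, passed the test at 149 and 151 TPM in control against 182 and 165 in knockout (limma adjusted p = 0.0393), and did not after quantile normalization (adjusted p = 0.556). Cdk9 and Hnrnpa1 were not called. Over the whole list 9 genes were lower and 5 higher, with a median change of -0.17, where 14.7% and 25.2% of all tested genes were.

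Immediate-early and feedback genes are switched on by signals within minutes. Where 3.18% of all genes and 5.63% of tested genes started in a wide region, 5 of these 31 (16.1%) did. Those were Jun, Egr1, Dusp1, Nfkbia and Tnfaip3, and the RNA of all 5 fell, as it did in each of 11 alternatives of the RNA analysis. Jun, a subunit of the AP-1 factor, went from 652 and 637 to 306 and 312 TPM with a width ratio of 0.03 (log2). Egr1 went from 102 and 96.3 to 59.6 and 50.3 TPM with a width ratio of 0.08. The whole list had 26 genes lower, 0 higher and a median of -1.18, against 0.093 over all tested genes. Of all tested genes, 14.7% were lower and 25.2% higher.

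No start in a wide region was found among 18 T-lineage genes, 13 mast cell and basophil genes, 14 neutrophil and monocyte genes or 14 stromal genes. With 3.18% of all genes starting in one, lists of this size cannot be told apart from that share. In the RNA, 14.7% of all tested genes were lower and 25.2% higher. Of 14 tested T-lineage genes, 13 were lower and 0 higher, with summed TPM of 803.3 and 797.7 in control and 142.1 and 145.2 in knockout. Mast cell and basophil genes were higher in 10 of 12 and lower in 1, and neutrophil and monocyte genes higher in 6 and lower in 3 of 14. Of 41 haematopoietic transcription factors, Etv6 and Elf1 started in one. Elf1 fell from 180 and 185 to 150 and 156 TPM (log2 change -0.26). Without control replicate 2 its change was -0.23 with a limma adjusted p of 0.0574. Etv6 was not called. That list had 19 lower and 9 higher. Of 21 progenitor surface and signalling genes (12 lower, 4 higher), Itga4 did. Tcf7, whose 518 and 510 TPM in control fell to 13.2 and 12.4 TPM in knockout, started in no wide region, and neither did Lef1, at 1.10 to 1.66 TPM in all 4 libraries.

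The remaining lists were mixed, beside 14.7% lower and 25.2% higher over all tested genes on the deposited TPM. Among 23 chromatin and Polycomb genes (10 lower, 3 higher), Eed started in a wide region. Eed, the subunit of PRC2 that reads the H3K27 methyl mark, rose from 39.7 and 40 to 64.9 and 66.6 TPM (limma adjusted p = 0.00101). Of 20 replication-dependent histone genes, Hist1h1c did (5%), which is also near the share of all genes. That list had 0 lower and 9 higher on the deposited TPM, 2 and 6 under quantile normalization and 1 and 4 under median-ratio scaling. Of 20 ribosomal protein genes, none did, and of all 86 Rpl and Rps genes by symbol 3 did (3.49%), a share near that of all genes. The list had 7 lower and 1 higher on the deposited TPM and 16 lower and 0 higher under median-ratio scaling.

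Symbol families were chosen after the member genes were seen, so their shares describe the members and cannot back the lists. Hnrnpa1 and Hnrnpa2b1 are in both the Hnrnp family and the RNA polymerase II and splicing list. Of 20 Hnrnp genes, which package nuclear RNA, 8 started in wide regions (40%), and of 5 Psme genes, which encode proteasome activators, 3 did. Hnrnpk, with a RefSeq start in the Rmi1 region, is not among the 8. Of 38 Ube2 ubiquitin-conjugating enzymes 7 did (18.4%), and of 21 Nup nucleoporin genes 3 did (14.3%). Shares were 4.34% of 392 Zfp zinc-finger genes and 2.13% of 376 Slc transporters, near the 3.18% of all genes. None of 46 Nduf genes of respiratory complex I, 42 Hox genes or 1125 Olfr olfactory receptor genes did. Only 45 of the Nduf, 10 of the Hox and 21 of the Olfr genes passed the TPM filter. Their absence among so few tested genes cannot be told apart from the 5.63% of all tested genes. Psme2 rose from 149 and 151 to 231 and 204 TPM and Psme3 from 85.5 and 83.7 to 137 and 133. Nup98 rose from 62.6 and 56.1 to 85.4 and 82.7 TPM. Nup153 and Nup50 passed the test by 0.25 and 0.26 on the deposited TPM, but only 1 of the 3 Nup genes did under either scaling. Of the 8 Hnrnp genes, 3 were higher on the deposited TPM, while 2 were lower and 1 higher after quantile normalization.

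Some neighbours in a wide region differed in opposite directions between libraries. Atp6v0c, a proton pump subunit, stood at 3.04, 8.91 and 3.84 TPM and then 47.6 TPM in knockout replicate 2, where its copy Atp6v0c-ps2 had 0.0193 TPM against 32 to 45.3 TPM in the other libraries. Kctd12 and Mir5130, which share a region, stood at 0 and 17 TPM in control replicate 1 and at 31.8 and 0.452 TPM in knockout replicate 1. Neither pair was called, and values of genes with overlapping or near-identical models in these regions are uncertain.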

How the data were processed

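The 4 RNA and 4 ATAC libraries, 2 of each per genotype, were grouped by their titles. Per the submitters' processing notes, HISAT2 and StringTie served for RNA and Bowtie2 and MACS2 for ATAC, with build mm10 and no versions named. The authors deposited TPM (summing to 1000000 per library), FPKM and a coverage signal per gene. Coverage was not used in any result. The deposited peak lists, 1 per library, hold for each peak a score, −log10 p, −log10 q and the caller's fold, a ratio to the local background, per the narrowPeak layout. The sources used here do not give strand use, peak thresholds, duplicate removal or read shifting. No read counts were used, so depth and counting error are unknown and precision rests on 2 libraries per group.

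Peaks overlapping by 1 base were merged, and ties in width were ordered by chromosome and start. Gene starts came from the expression tables, with TPM of repeated gene IDs summed. For RNA, limma 3.58.1 in R 4.3.3 (lmFit, eBayes with trend) was run on log2(TPM + 1) over genes with a mean of at least 1 TPM, genotype only, with Benjamini-Hochberg adjustment over all of them and a threshold of 0.05. This scale understates changes of low genes. The code was tested on simulated data. Named regions were the 15 widest and, among those whose genotypes did not overlap, the 8 most widened and 8 most narrowed. Named genes were the 10 largest falls and rises among called genes whose libraries did not overlap, the 10 highest by TPM and list members. Members and lists were chosen with earlier results of these data known. Alternatives changed the pseudocount, filter, scaling, unit, replicate term, number of regions, peak threshold, merging distance and libraries used. Width received no test beyond the total, since 2 against 2 libraries cannot pass 0.05. Promoter sequences are from RefSeq (GRCm38.p6). Python 3.11.15 was used for the rest. A result on the chromatin list is not reported here.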

Additional observations from a re-analysis of the deposited data

How the results depend on the processing

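Settings that moved a value were these. Dividing by the library median turned the median log2 width ratio to -0.0214 and the total difference to -0.124%, with 17.8% of regions wider and 34.8% narrower. Merging peaks up to 100 bases apart gave a median ratio of 0.0526. Leaving out 1 library gave 21.6% to 25.4% narrower regions, since fewer libraries then have to be separate. Median control TPM was 28.6 for the 400 widest, 27.1 for the 1600 widest and 25.8 for starts within 1 kb. Genes lower and higher numbered 63 and 86 for the 400 widest and 214 and 386 for the 1600 widest, which hold fewer and more genes. Leaving out 1 library, where the lone sample is assumed to vary like the others, gave 53 to 83 lower and 105 to 127 higher member genes, and 1088 to 1450 lower and 2005 to 2242 higher over all genes. Ipo7 turned to -0.01 under quantile normalization. With a replicate block, 107 member genes were lower and 170 higher (1798 and 3072 over all genes). RNA deviations of same-numbered libraries correlated at 0.00432. With 2 libraries per group, this cannot tell whether they shared an animal, culture or day. Alternatives for the total width were chosen after seeing the data. With 2 libraries per group and no read counts, small differences in width cannot be resolved.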
